A study of Mus musculus with 8 samples.

Results

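Complement is a cascade of plasma and tissue proteins that tags particles and cells for removal. The classical pathway starts when C1q, a hexamer built from the chains encoded by C1qa, C1qb and C1qc, binds a target and activates the proteases C1r and C1s, which cleave C4 and C2. The alternative pathway runs through factor B, and both meet at the cleavage of C3, whose small fragment C3a signals through C3ar1, as C5a does through C5ar1. In the arterial wall macrophages are a known source of C1q, while C3 and C4 are also made by liver and by fibroblasts.

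The genes described are the 9 complement components and regulators C1qa, C1qb, C1qc, C3, C4b, Cfb, C3ar1, C5ar1 and Serping1, taken from 48607 assembled loci of the deposited gene table by their gene name. They were named by 10 rows, and for a gene with more than 1 row the row with the most counts was used, so each gene has 1 row. All 9 passed the filter on low values. Poly(A) RNA was sequenced from the whole aorta of mice that all lacked ApoE, the apolipoprotein whose loss makes mice prone to atherosclerosis, and that were fed a Western diet for 12 weeks. The titles named 5 libraries ApoE-/- (with the numbers 1 to 5) and 3 libraries NPRC-/-ApoE-/- (with the numbers 1 to 3). Mice of the second genotype also carried a CRISPR/Cas9 frameshift in exon 1 of Npr3, the gene of natriuretic peptide receptor C, in all their cells. The animals of both groups were littermates. ApoE-/- mice were bought as males aged 8 weeks, while the sex and age of the sequenced animals and whether aortas were pooled are not given in the sources used here. The genotype entry of each sample named the titled genotype for 4 libraries, ApoE-/- 1, 2 and 3 and NPRC-/-ApoE-/- 3. For the other 4 the entry named the opposite genotype: it put ApoE-/- 4 and 5 with NPRC-/-ApoE-/-, and NPRC-/-ApoE-/- 1 and 2 with ApoE-/-. No source used here says which label applies, so every comparison was made by title and again by genotype entry, and libraries are named by title throughout.

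The libraries held 62969165 to 86693276 counts, of which the 9 rows took 0.199 to 0.525%. Npr3 RNA did not separate the groups under either label (0.62 to 1.69 FPKM in ApoE-/- and 1.13 to 1.39 FPKM in NPRC-/-ApoE-/- by title), and a frameshift need not lower it. ApoE-/- 5 stood apart for a liver list: the summed level of Alb, Apoa1, Ttr, Apoa2 and Fga was 65.9 FPKM in ApoE-/- 5 and at most 1 FPKM in each of the other 7. ApoE-/- 2 stood apart for B cell markers (17.3 FPKM, at most 3 FPKM elsewhere), mesothelium (5.07 FPKM, at most 0.92) and erythroid markers (2995 FPKM, at most 1359). FPKM, the unit of the levels given here, counts fragments per kilobase of transcript at a fixed library size. It can be compared between genes whose rows have the extent of the gene. In a whole aorta, fewer cells of a type and less RNA per cell cannot be told apart.

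By title, all 9 genes had a lower mean in NPRC-/-ApoE-/- (50.9% of all loci had a log2 fold change below 0), with log2 fold changes from -1.47 for C1qc to -0.16 for Serping1 and a median of -0.92, against a median of -0.01 over all 20506 loci tested. None of the 9 had an adjusted p-value under 0.05 (quasi-likelihood test of edgeR, adjusted by Benjamini-Hochberg across all loci), and neither did any other locus (percentage called 0.0). Of the 9, 7 were lower at an unadjusted p-value under 0.05, which 7.13% of all loci were. C1qa, C1qb, C1qc and Cfb, 4 of the 9, also had a fold change below 0.5, the criterion of the study, which 2.39% of all loci met in this direction. The titled groups did not overlap for 4 genes, C3, C4b, Cfb and C5ar1, with NPRC-/-ApoE-/- lower, as for 3.69% of all loci on log2 CPM, counts scaled to library size. By genotype entry the 9 log2 fold changes were again all below 0, as for 51.0% of loci, but closer to it, with a median of -0.19 against 0.00 over all loci. In that grouping 0 of the 9 had an unadjusted p-value under 0.05 (0.697% of all loci were lower at that threshold), 0 met the criterion (0.263%) and the groups overlapped for all 9 (0.566% of loci did not overlap).

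**Figure D1:**
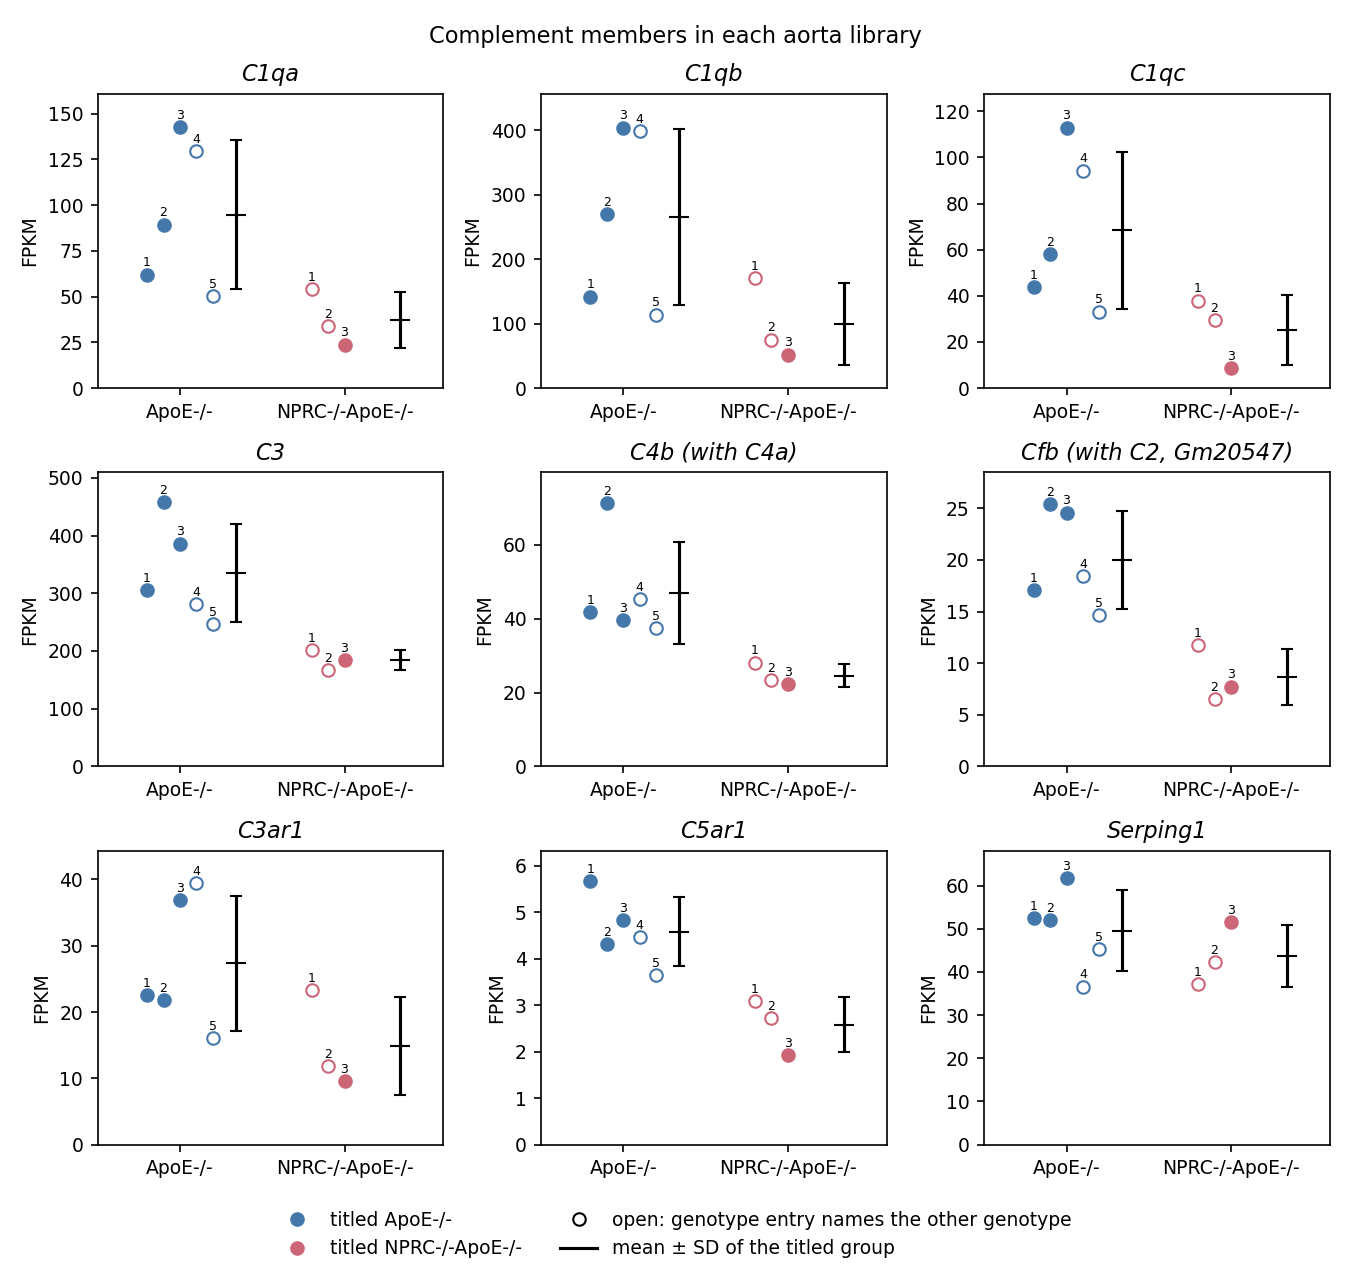
FPKM of the 9 complement genes in each of the 8 aorta libraries, by title, with the library number beside each point. Open points are libraries whose genotype entry names the other genotype, and bars are the mean ± SD of the titled group. The titled groups are apart for C3, C4b, Cfb and C5ar1 and overlap for the others.

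The 3 C1q genes lie side by side on the minus strand of chromosome 4 in GRCm38, within 18675 bases: C1qb (ENSMUSG00000036905) from 136880129 to 136886187, C1qc (ENSMUSG00000036896) from 136889804 to 136893065 and C1qa (ENSMUSG00000036887) from 136895917 to 136898803, each with at most 3 exons in the GENCODE M21 annotation. C4b, C4a, Cfb and C2 lie within 169886 bases on the minus strand of chromosome 17, and C3 on the same chromosome from 57203970 to 57228136. This arrangement bears on the counts. The row of C4b (gene from 34728380 to 34743882) also carried C4a, a near-identical neighbour (34809092 to 34823464), and that of Cfb (34856374 to 34862518) also carried C2 and the read-through gene Gm20547, so the counts of these genes could not be separated. The row of Serping1 (chromosome 2, gene from 84765387 to 84775444) ran 5807 bases past the annotated gene. C3ar1 (chromosome 6, 122847138 to 122856161) and C5ar1 (chromosome 7, 16246743 to 16259540) each had a row of the annotated extent.

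The upstream sequences of C1qb and C3 are shown because these genes lead the 2 patterns described below, the C1q chains and the C3, C4b and Cfb trio. RefSeq promoters of GRCm38.p6 were available for 5 of the 9 genes, namely C1qb, C1qc, C3, C3ar1 and C5ar1. Each line gives the 250 bases before the RefSeq start site, 5′ to 3′ on the strand of the gene, with matches to the searched motifs in capitals.
C1qb, chr4:136886201-136886450, minus strand: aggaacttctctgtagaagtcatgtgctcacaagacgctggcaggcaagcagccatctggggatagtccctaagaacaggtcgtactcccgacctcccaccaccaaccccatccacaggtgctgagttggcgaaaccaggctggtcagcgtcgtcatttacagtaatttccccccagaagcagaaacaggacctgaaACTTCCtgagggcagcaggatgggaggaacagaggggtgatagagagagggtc
C3, chr17:57228137-57228386, minus strand: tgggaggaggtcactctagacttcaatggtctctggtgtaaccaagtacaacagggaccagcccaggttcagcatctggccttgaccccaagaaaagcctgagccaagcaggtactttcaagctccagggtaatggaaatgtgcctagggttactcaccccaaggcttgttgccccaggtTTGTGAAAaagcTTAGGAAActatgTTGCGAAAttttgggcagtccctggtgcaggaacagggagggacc

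The motifs were searched on both strands in the RefSeq windows, which run from 250 bases before the start site to 50 after it, and a match is a description of the letters only. GGAAGT, the type bound by ETS factors such as PU.1, occurred each time as its reverse complement, ACTTCC. It lay in C1qb with its first base at -53, in C1qc at -195, and in C5ar1 at -190 and -72. It was present in 3 of the 5 windows and in 23.8% of all 32851 RefSeq promoters. TTNNGNAA, of the C/EBP type, occurred 3 times in C3, at -70, -58 and -45, once in C1qc at -81 and once in C5ar1 at -157, and was in 40.7% of all promoters. GGNNTTNCC, of the NF-kB type, was in the window of C3ar1 at -14 (16.0% of all promoters), and GAAANNGAA, of the interferon response type, in that of C5ar1 at -66 (8.56%), directly after the ETS-type match at -72. TATAAA was found in C3ar1 at -235 and in C3 at 14 (13.6%). None of the listed matches in a window shared a base. For C5ar1 and C1qc, and by a few bases for C3ar1, the RefSeq start site lies inside the gene extent of GENCODE M21. All listed C5ar1 matches and the C1qc match at -81 therefore fall within that annotated extent.

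Among the 9 genes, C3 was the most abundant by length-scaled level, with 278 ± 102 FPKM (SD, n = 8 libraries), followed by C1qb with 203 ± 139 FPKM, C1qa with 73.2 ± 43.6, C1qc with 52.2 ± 35.0, Serping1 with 47.4 ± 8.63, C4b with 38.6 ± 15.7, C3ar1 with 22.7 ± 10.8, Cfb with 15.8 ± 7.05 and C5ar1 with 3.83 ± 1.22. C1qb was above C1qa, C1qa above C1qc, C4b above C3ar1 and Cfb above C5ar1 in all 8 libraries. Neighbours in this order were not always apart: C3 was above C1qb in 6 of 8 libraries, C1qc above Serping1 in 4, Serping1 above C4b in 6 and C3ar1 above Cfb in 7. The rows of C4b, Cfb and Serping1 ran past the annotated gene, so their places in this order depend on the length used for scaling. By counts summed over the 8 libraries, C4b with 412353 was above C1qb with 168229.

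C1qa, C1qb and C1qc encode the chains of the recognition molecule of the classical pathway. C1qa was at 62.0, 89.3, 143, 130 and 50.2 FPKM in the libraries titled ApoE-/- 1 to 5 and at 54.1, 33.8 and 23.7 FPKM in those titled NPRC-/-ApoE-/- 1 to 3. ApoE-/- 3 and 4 were the highest and NPRC-/-ApoE-/- 3 the lowest, and the titled groups overlapped, since ApoE-/- 5 was below NPRC-/-ApoE-/- 1. The log2 fold change of C1qa was -1.37 by title (standard error 0.43, unadjusted p = 0.012, adjusted p = 0.29 by edgeR's quasi-likelihood test, with alternatives giving 0.037 to 0.76). By genotype entry it was -0.15 (standard error 0.60, 95% interval -1.52 to 1.22).

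C1qb had 141, 270, 404, 398 and 114 FPKM in ApoE-/- 1 to 5 and 171, 74.8 and 51.5 FPKM in NPRC-/-ApoE-/- 1 to 3. Its order across libraries resembled that of C1qa, but NPRC-/-ApoE-/- 1 was above both ApoE-/- 1 and ApoE-/- 5. Its log2 fold change was -1.45 by title (standard error 0.57, unadjusted p = 0.030, adjusted p = 0.33 by the same test) and -0.15 by genotype entry (standard error 0.71).

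C1qc was at 43.7, 58.0, 113, 94.3 and 33.2 FPKM in ApoE-/- 1 to 5 and at 37.9, 29.3 and 8.56 FPKM in NPRC-/-ApoE-/- 1 to 3. The last of these was the lowest by far, with 1768 counts, and the range over the 8 libraries was 13.2-fold, against 6.02-fold for C1qa and 7.84-fold for C1qb. The log2 fold change of C1qc was -1.47 by title (standard error 0.57, unadjusted p = 0.029, adjusted p = 0.33 by the same test) and -0.29 by genotype entry (standard error 0.71).

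The 3 chains varied together across libraries, with Pearson correlations of 0.94 to 0.99 between their log2 CPM values over the 8 libraries, which share the library as a source. The FPKM of C1qb was 2.17 to 3.16 times that of C1qa, and that of C1qc was 0.649 to 0.869 times that of C1qa in 7 libraries but 0.361 times in NPRC-/-ApoE-/- 3. Neither ratio separated the titled groups. The unadjusted p-values of C1qb and C1qc were above 0.05 when ApoE-/- 3, ApoE-/- 4, NPRC-/-ApoE-/- 2 or NPRC-/-ApoE-/- 3 was left out (0.062, 0.062, 0.097 and 0.106 for C1qb and 0.059, 0.057, 0.054 and 0.079 for C1qc). For C1qa the unadjusted p-value stayed between 0.0037 and 0.049 with each library left out in turn. 

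**Figure D2:**
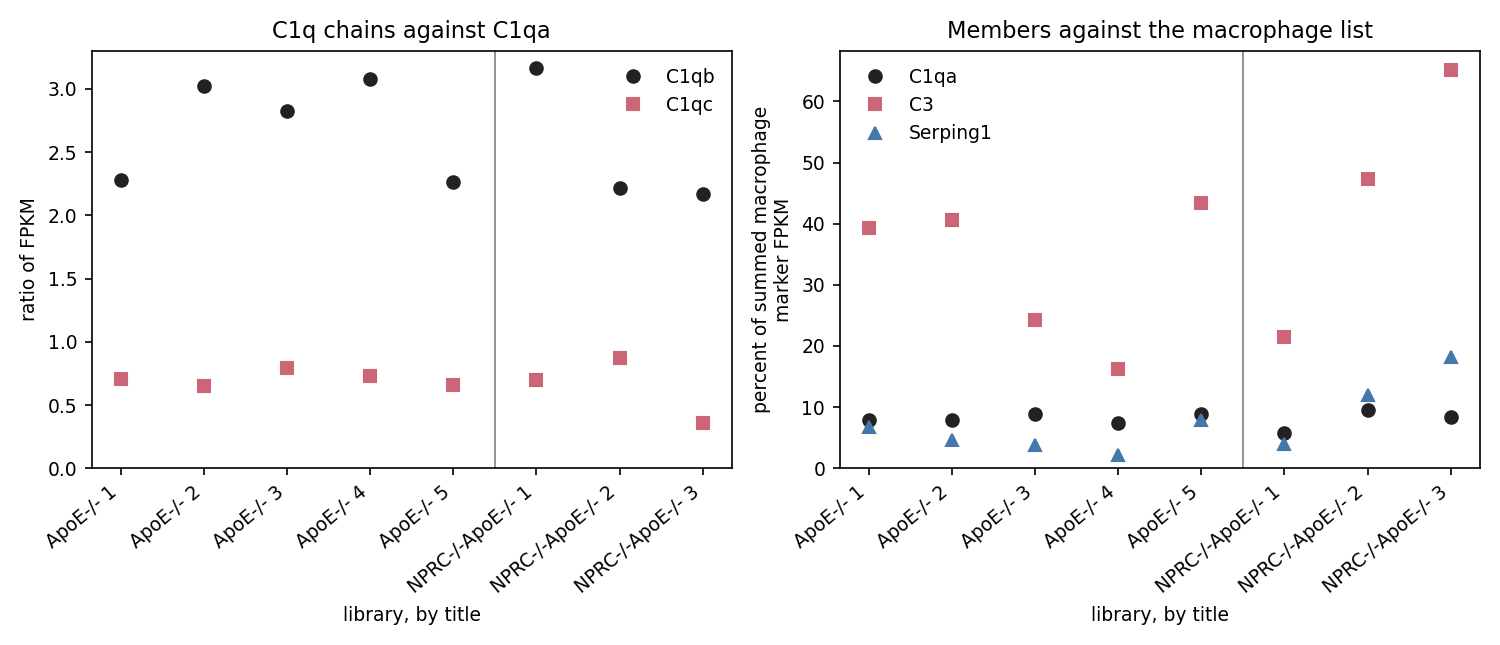
Left, the FPKM of C1qb and C1qc divided by that of C1qa in each library, by title. Right, the FPKM of C1qa, C3 and Serping1 as a percentage of the summed FPKM of 10 macrophage markers. The C1qc ratio is lowest in NPRC-/-ApoE-/- 3 at 0.361, and the C1qa percentage spans 5.80 to 9.56, while that of C3 spans 16.2 to 65.1.

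C3 is the protein at which the pathways converge. It was at 305, 457, 386, 281 and 246 FPKM in ApoE-/- 1 to 5 and at 201, 167 and 184 FPKM in NPRC-/-ApoE-/- 1 to 3. The titled groups did not overlap, with ApoE-/- 5 the nearest of its group to the other, and the values of NPRC-/-ApoE-/- were close together, 184 ± 17.0 FPKM (SD, n = 3). The log2 fold change of C3 was -0.85 by title (standard error 0.25, unadjusted p = 0.0076, adjusted p = 0.27 by edgeR's quasi-likelihood test, with alternatives giving 0.025 to 0.76). By genotype entry it was -0.33 (standard error 0.36). A second row named C3, on the plus strand from 57222796 to 57228028 and thus within the C3 gene but on its other strand, held 34 to 336 counts per library. Its level was 1.52 to 6.55 FPKM in ApoE-/- and 0.83 to 2.40 FPKM in NPRC-/-ApoE-/- by title. The library kit marked strand, but whether the counting used it is not given in the sources used here.

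C4b encodes the C4 of the classical pathway that C1s cleaves. Its row, which includes C4a, was at 41.7, 71.3, 39.6, 45.2 and 37.4 FPKM in ApoE-/- 1 to 5 and at 28.1, 23.3 and 22.3 FPKM in NPRC-/-ApoE-/- 1 to 3. ApoE-/- 2 was well above the others, and the titled groups did not overlap. By title its log2 fold change was -0.92 (standard error 0.23, unadjusted p = 0.0034, adjusted p = 0.26 by the same test, with alternatives giving 0.012 to 0.76). By genotype entry it was -0.19 (standard error 0.38).

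Cfb encodes factor B, the protease of the alternative pathway convertase. Its row, with C2 and Gm20547, was at 17.1, 25.4, 24.6, 18.5 and 14.6 FPKM in ApoE-/- 1 to 5 and at 11.7, 6.48 and 7.73 FPKM in NPRC-/-ApoE-/- 1 to 3. The titled groups did not overlap, and the unadjusted p-value was the smallest of the 9 genes. By title its log2 fold change was -1.20 (standard error 0.27, unadjusted p = 0.0016, adjusted p = 0.22 by the same test, with alternatives giving 0.0032 to 0.73). By genotype entry it was -0.31 (standard error 0.46).

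C3, C4b and Cfb correlated with each other at 0.91 to 0.96 over the 8 libraries (Pearson, log2 CPM). For each of the 3, ApoE-/- 2 was the highest library in FPKM, and each of the 3 libraries titled NPRC-/-ApoE-/- was below all 5 others. Without ApoE-/- 2 the log2 fold changes by title were -0.73 for C3, -0.74 for C4b and -1.12 for Cfb, and without ApoE-/- 5 they were -0.95, -1.01 and -1.31. An exact permutation test (two-sided, 5 titled libraries against 3) gave p = 0.036 for each of C3, C4b, Cfb and C5ar1. That is the smallest value this two-sided test can give with 56 splits, and it follows from groups that do not overlap. The same test gave 0.071 for C1qa and C1qc, 0.11 for C1qb, 0.14 for C3ar1 and 0.57 for Serping1.

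C3ar1 and C5ar1 encode the receptors of C3a and C5a, which are carried by myeloid cells. C3ar1 was at 22.5, 21.8, 36.9, 39.5 and 16.1 FPKM in ApoE-/- 1 to 5 and at 23.3, 11.9 and 9.53 FPKM in NPRC-/-ApoE-/- 1 to 3. NPRC-/-ApoE-/- 1 lay above 3 of the 5 libraries titled ApoE-/-, so the groups overlapped. The log2 fold change of C3ar1 was -0.89 by title (standard error 0.40, 95% interval -1.81 to 0.02, unadjusted p = 0.053, adjusted p = 0.37 in the edgeR fit). By genotype entry it was -0.07 (standard error 0.49). Over the 8 libraries C3ar1 correlated with the 3 C1q genes at 0.93 to 0.96 and with C3, C4b and Cfb at 0.63 to 0.81.

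C5ar1 was the least abundant of the 9, at 5.67, 4.32, 4.83, 4.46 and 3.64 FPKM in ApoE-/- 1 to 5 and at 3.09, 2.72 and 1.93 FPKM in NPRC-/-ApoE-/- 1 to 3, from 518 to 1432 counts. The titled groups did not overlap, with ApoE-/- 5 next to NPRC-/-ApoE-/- 1. The log2 fold change of C5ar1 was -0.82 by title (standard error 0.20, unadjusted p = 0.0032, adjusted p = 0.26 by the same test, with alternatives giving 0.012 to 0.73). By genotype entry it was -0.28 (standard error 0.33).

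Serping1 encodes the C1 inhibitor, the serpin that inactivates C1r and C1s. It was at 52.5, 51.9, 61.8, 36.6 and 45.3 FPKM in ApoE-/- 1 to 5 and at 37.2, 42.3 and 51.5 FPKM in NPRC-/-ApoE-/- 1 to 3. The groups overlapped under both labels, and the lowest library in FPKM was ApoE-/- 4, one of the highest for the C1q genes. Its log2 fold change was -0.16 by title (standard error 0.20, 95% interval -0.62 to 0.30, adjusted p = 0.76 by the same test) and -0.12 by genotype entry (standard error 0.21). Serping1 varied 1.69-fold over the 8 libraries, against 2.74-fold for C3 and 2.94-fold for C5ar1, and its correlations with the other 8 genes were 0.07 to 0.53, whereas those among the other 8 were 0.63 to 0.99.

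**Figure D3:**
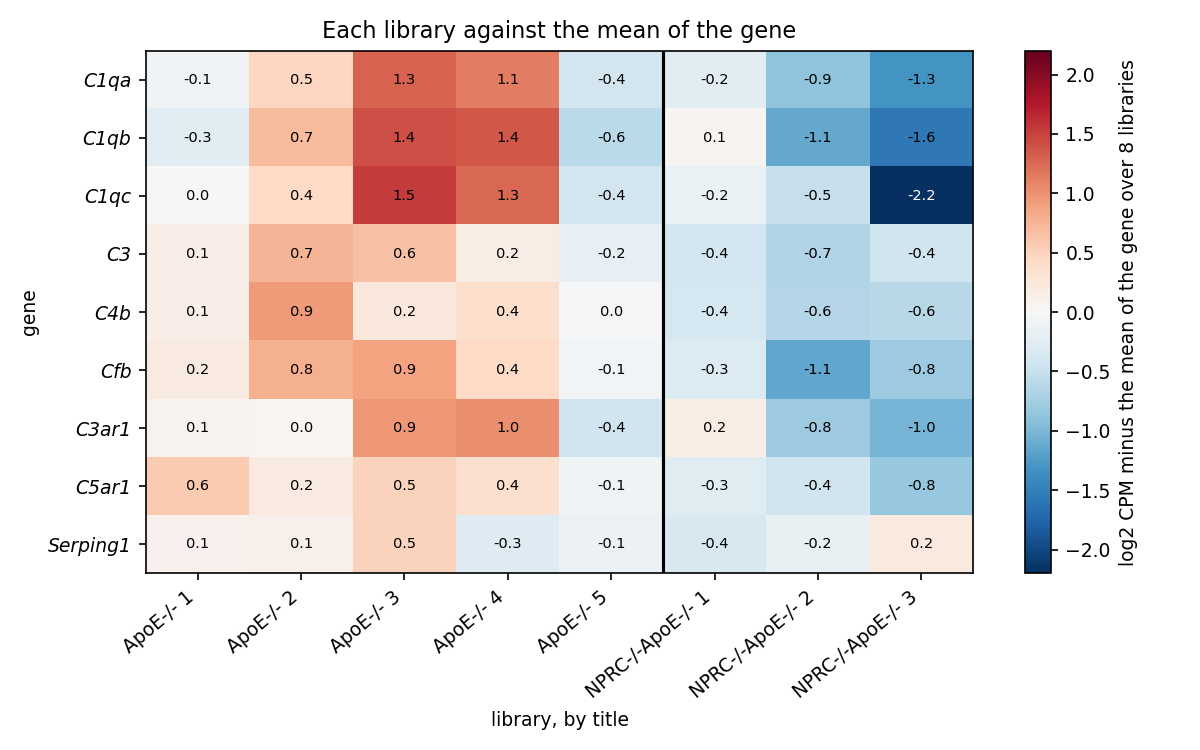
log2 CPM of each gene in each library minus its mean over the 8 libraries, with the value in each cell and a black line between the titled groups. NPRC-/-ApoE-/- 3 reaches -2.19 for C1qc and ApoE-/- 3 reaches 1.54, while the row of Serping1 is the palest.

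Read by library, NPRC-/-ApoE-/- 3 had the lowest FPKM of 6 of the 9 genes, NPRC-/-ApoE-/- 2 of 2 and ApoE-/- 4 of 1 (Serping1, for which NPRC-/-ApoE-/- 1 was lowest on log2 CPM). The highest values were in ApoE-/- 3 for 4 genes, in ApoE-/- 2 for 3, and in ApoE-/- 1 and ApoE-/- 4 for 1 each. ApoE-/- 5, which held the liver transcripts, was among the 3 lowest libraries for 4 of the 9 genes, and NPRC-/-ApoE-/- 2 was for all 9. ApoE-/- 4 and ApoE-/- 5, which the genotype entry places with NPRC-/-ApoE-/- 3, were at rank 2 and rank 6 of the 8 libraries for each C1q gene, with 398 and 114 FPKM of C1qb.

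Among the 4 libraries with agreeing labels (ApoE-/- 1, 2 and 3 against NPRC-/-ApoE-/- 3), all 9 log2 fold changes were below 0 again (53.1% of loci were), with a median of -1.44. They ranged from -3.01 for C1qc (standard error 0.71, unadjusted p = 0.0062) to -0.03 for Serping1, and 6 genes were lower at an unadjusted p-value below 0.05 and also met the criterion, against 7.37% and 5.5% of all loci in this direction (edgeR, with the lone NPRC-/-ApoE-/- library assumed to vary like the others). That arm is 1 library, the one with the lowest FPKM of 6 of the 9 genes, so the p-values carry no replicate check of NPRC-/-ApoE-/-. No adjusted p-value of the 9 was under 0.05 in that edgeR fit (0.0683% of all loci were). The unadjusted p-values of C3 and C4b were 0.071 and 0.055.

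**Figure D4:**
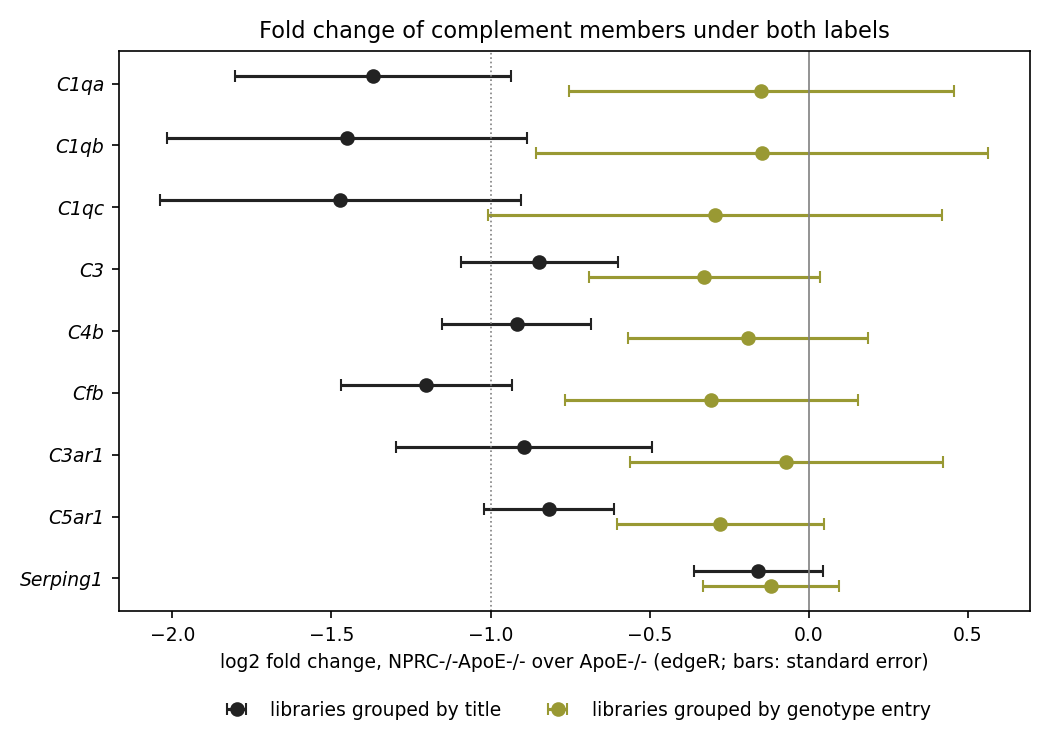
log2 fold change of each gene, NPRC-/-ApoE-/- over ApoE-/-, with its standard error from edgeR, for the libraries grouped by title (black) and by genotype entry (olive). The solid line marks no change and the dotted line a fold of 0.5. By title 8 of the 9 genes lie between -1.47 and -0.82, and by genotype entry all 9 lie between -0.33 and -0.07.

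Other tools made more calls by title. DESeq2 gave 5 of the 9 genes an adjusted p-value under 0.05, namely C1qa (0.037), C3 (0.025), C4b (0.012), Cfb (0.0032) and C5ar1 (0.012), while it called 627 of 20506 loci (3.06%). limma with sample quality weights on log2(FPKM + 1) called the same 5 genes (adjusted p from 0.031 to 0.0499) among 1168 loci (5.7%), and limma without weights called 0 of the 9 among 2 loci. By genotype entry each of these tools called 0 of the 9.

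Smooth muscle markers, led by Acta2, were high in all 8 libraries, as an aorta would give. Marker lists of other cell types were followed beside the 9 genes, the summed level of every list overlapped between the titled groups, and no marker had an adjusted p-value under 0.05 in edgeR. Of 10 macrophage markers, 9 were lower by title and 3 of them at an unadjusted p-value under 0.05 (Csf1r, Fcgr1 and Mrc1; 7.13% of all loci were), and their summed level was 569 to 1731 FPKM in ApoE-/- and 283 to 932 FPKM in NPRC-/-ApoE-/-, with 86.6% of the sum from Lyz2. The row of Cd68 also carried Senp3, Eif4a1 and other genes, so its level is not that of Cd68 alone. All 6 fibroblast markers were lower, 2 of them at an unadjusted p-value under 0.05 (Dcn and Dpt), with sums of 506 to 1332 FPKM and 282 to 701 FPKM. The 8 smooth muscle markers were all higher, 7 at an unadjusted p-value under 0.05 (6.51% of all loci were higher at that threshold), with sums of 1339 to 1786 FPKM and 1729 to 2964 FPKM. By genotype entry 0 markers of these 3 lists had an unadjusted p-value under 0.05, and the median log2 fold change was -0.17 for macrophage, -0.09 for fibroblast and 0.12 for smooth muscle markers, against -0.93, -0.85 and 0.75 by title. Neutrophil markers summed to 3.39 to 13.7 FPKM and 2.46 to 11.98 FPKM, T cell markers to at most 6.51 FPKM and B cell markers to at most 17.3 FPKM (in ApoE-/- 2), and no marker of any list was listed at 0 in all 8 libraries. Endothelial markers summed to 87.5 to 96.4 FPKM and 80.0 to 92.3 FPKM, those of mesothelium to at most 5.07 FPKM, white fat to 61.7 to 280 FPKM and 117 to 209 FPKM, and brown fat to 98.4 to 438 FPKM and 267 to 440 FPKM. Erythroid markers summed to 279 to 2995 FPKM and 177 to 903 FPKM, and skeletal muscle markers to at most 8.66 FPKM. The part of these markers in the result was not tested.

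Set against the summed macrophage markers of the same library, the C1q genes, C3ar1 and Cfb ranged less between libraries than on their own, and C4b about the same. Since 86.6% of that sum came from Lyz2, these percentages are close to ratios to that gene. C1qa was 8.23 ± 0.63% of that sum in ApoE-/- (SD, n = 5) and 7.91 ± 1.93% in NPRC-/-ApoE-/- (SD, n = 3), C1qb was 22.1 ± 2.92% and 19.2 ± 1.68%, and C1qc was 5.82 ± 0.74% and 5.13 ± 2.80%. From the lowest to the highest library the percentage ranged 1.65-fold for C1qa, 1.39-fold for C1qb, 2.75-fold for C1qc and 1.74-fold for C3ar1. It ranged 2.56-fold for Cfb, 3.17-fold for C4b and 2.99-fold for C5ar1, whose levels alone ranged 3.92-fold, 3.20-fold and 2.94-fold. For C3 the percentage ranged 4.02-fold, from 16.2% in ApoE-/- 4 to 65.1% in NPRC-/-ApoE-/- 3, and for Serping1 8.62-fold. None of the 9 percentages separated the titled groups.

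The wider pathway was followed with 49 other complement genes listed by role. Of these, C4a and C2 share rows with C4b and Cfb, 21 were below the filter on low values, and the other 26 lay in 22 tested rows. By title 21 of the 22 rows were lower and 1 was higher, with a median log2 fold change of -0.60. Of these rows, 9 were lower at an unadjusted p-value under 0.05. These counts and the median are a description and are not set against all loci, because some rows passed the filter mainly through ApoE-/-. C6 and Vtn, 2 of the 9, were below 1 FPKM in every NPRC-/-ApoE-/- library and passed the filter through ApoE-/- alone. Csmd1 was below it in 2 of the 3. Of the 17 rows that reached 1 FPKM in all 3 NPRC-/-ApoE-/- libraries, 6 were lower at that threshold. Over all loci tested, under the looser filter, 7.13% were. None of the 22 had an adjusted p-value under 0.05 (smallest 0.13 by edgeR's quasi-likelihood test). By genotype entry 15 were lower (51.0% of all loci were) and 7 higher, with a median of -0.07, and 0 had an unadjusted p-value under 0.05 in either direction. Leaving out NPRC-/-ApoE-/- 2 or NPRC-/-ApoE-/- 3 gave 5 such rows by title in place of 9, and leaving out ApoE-/- 5 gave 10.

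Among the proteases and recognition molecules that start the cascade, the row of C1s1 and C1s2 (22.0 FPKM on average) had a log2 fold change of -0.82 by title (standard error 0.18, unadjusted p = 0.0016, no overlap) and that of C1ra and C1rb (14.0 FPKM) -0.68 (standard error 0.21, unadjusted p = 0.011). The row of Colec11, a collectin, was at -0.52 but also carried Rps7, a ribosomal protein gene. In the alternative pathway Cfp, encoding properdin, shared its row with Elk1 and Uxt and was at -0.51 (standard error 0.17, unadjusted p = 0.016). Cfd, encoding factor D and best known from fat cells, had 47.2 FPKM and a log2 fold change of -0.71 with a standard error of 0.49.

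C6, a component of the membrane attack complex, was at 1.48, 2.23, 2.27, 2.11 and 1.25 FPKM in ApoE-/- 1 to 5 and at 0.43, 0.53 and 0.34 FPKM in NPRC-/-ApoE-/- 1 to 3, and it reached the filter of 1 FPKM through the libraries titled ApoE-/- alone, so these levels are a description. Its log2 fold change was -2.10 by title (standard error 0.30) and -0.15 by genotype entry (standard error 0.70). C7, which binds C6 in that complex, was at 13.2 FPKM on average with a log2 fold change of -0.35 (standard error 0.22).

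Among the regulators, Vtn, encoding vitronectin, had 0.53 to 0.57 FPKM in NPRC-/-ApoE-/- and likewise reached the filter through ApoE-/- alone, so its log2 fold change by title, -1.14 (standard error 0.35), is a description. The library with liver transcripts, ApoE-/- 5, held 2.41 FPKM of it and the other 4 of its group 0.87 to 1.04 FPKM. By genotype entry Vtn was at 0.62 (standard error 0.45). Clu, encoding clusterin, was the most abundant of the list at 107 FPKM, with a log2 fold change of -0.73 (standard error 0.36). Of the membrane regulators, Cd59a was at 0.00 (standard error 0.25) and the row of Cd46 and Cr1l at -0.02 (standard error 0.12), while Csmd1 was at -0.88 (standard error 0.31, unadjusted p = 0.018). Among the receptors, the integrin subunits Itgax and Itgb2, which form complement receptor 4, were at -1.26 and -0.99 by title (unadjusted p = 0.034 and 0.041) and at 0.03 and -0.12 by genotype entry.

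**Figure D5:**
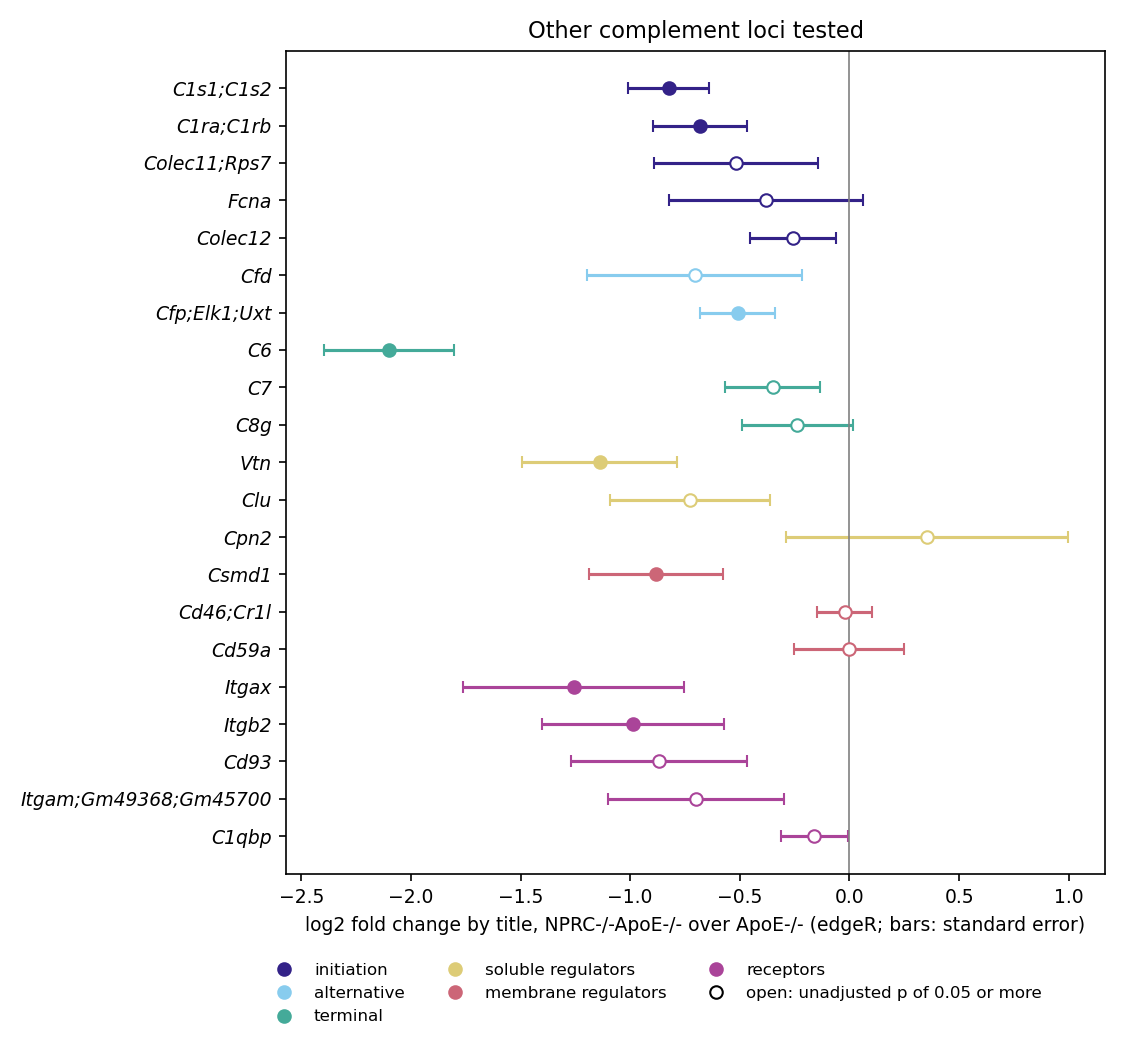
log2 fold change by title, NPRC-/-ApoE-/- over ApoE-/-, with its standard error from edgeR, of 21 of the 22 other complement rows that were tested, coloured by role. Filled points had an unadjusted p-value under 0.05. C6, farthest from 0 at -2.10, and Vtn passed the filter on low values through ApoE-/- libraries alone.

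The 21 complement genes below the filter included Hc, the gene of C5, with C8a, C8b, C9, Mbl1, Mbl2, C4bp and Cfi, whose products are known mainly from liver. Cfi was highest in ApoE-/- 4, at 0.93 FPKM, with 0.70 FPKM in ApoE-/- 5. The other genes named were each highest in ApoE-/- 5, at no more than 0.49 FPKM. The highest value among all 21 genes was 2.33 FPKM, of Cr2 in ApoE-/- 2. ApoE-/- 5 was the highest library for 12 of the 21 and listed 1 of them at 0, whereas each of the other 7 libraries listed 8 or 9 at 0.

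The rows most like each gene across the 8 libraries were sought among 3753 tested rows with 1 gene name and a mean of at least 5 FPKM, by Pearson correlation of log2 CPM, given as a description since points share the library. C1qa was most like Pltp (0.996), Man2b1 (0.992) and Stab1 (0.991), C1qb like Rnf130 (0.995), Ctsh (0.994) and Man2b1 (0.994), and C1qc like Stab1 (0.970), Pla2g7 (0.969) and Pltp (0.963). C3ar1 was most like Cpd (0.998), Abcg1 (0.996) and Itgax (0.996). C3 was most like Stk10 (0.971), Igfbp4 (0.967) and Dpt (0.966), of which Dpt is also in the fibroblast list, C4b like Tbca (0.978) and Jun (0.969), and Cfb like Trim25 (0.994), Adamts5 (0.990) and Ywhae (0.983). For C5ar1 the rows were Samhd1 (0.980), Khdrbs1 (0.963) and Morc3 (0.959), and for Serping1 Hmgb1-ps2 (0.968), Ppp1r9b (0.917) and Fbln1 (0.913).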

How the data were processed

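Per the methods and labels, the authors removed low-quality bases (cutadapt 1.9 in the submitters' processing notes), mapped reads with HISAT2 (GRCm38) and assembled each sample with StringTie. The deposited table holds a raw count and an FPKM value, scaled by transcript length and library size, per assembled locus and library. How counts were made is not given in the sources used here. 1710 loci carry several gene names.

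From the counts, 20506 loci reaching 1 FPKM in 3 or more libraries were tested with edgeR 4.0.16 in R 4.3.3 (TMM scaling, quasi-likelihood test, Benjamini-Hochberg adjustment), grouped by title and again by genotype entry. Standard errors are the log2 fold change over the root of F. The criterion taken from the methods combines a fold over 2 or under 0.5 with unadjusted p under 0.05. log2 CPM used a prior count of 2. The common biological coefficient of variation was 0.327 by title, so precision is limited by the number of libraries more than by depth (62969165 to 86693276 counts). Alternatives used DESeq2 1.42.0, limma 3.58.1 with pseudocounts of 1 and 0.1, RLE scaling, other filters, summed rows, a replicate block and libraries left out. The edgeR step was tested on simulated data. The labels do not say that each library is a separate animal, so p-values measure the spread between libraries. The genes, lists, rules and tests were chosen with earlier results of these data known. Besides the 9 genes, the rule named every other complement row with an unadjusted p under 0.05, the 2 most abundant rows of each role, and the 3 rows most like each gene. The genes below the filter were named after their values were seen, and the wider list's count under alternatives was added after seeing the data. A few items that the rule or the motif search covers are not reported here, though the counts include them.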

Additional observations from a re-analysis of the deposited data

How the results depend on the processing

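By title, the 9 log2 fold changes stayed below 0 under every alternative run. Of their values under these settings, 150 kept their side of an unadjusted p of 0.05, 8 newly passed it and 12 lost it. The count meeting the criterion (4) was 2 to 6 with each library left out in turn, with 2 without ApoE-/- 3, ApoE-/- 4, NPRC-/-ApoE-/- 2 or NPRC-/-ApoE-/- 3, and the median log2 fold change (-0.92) was -1.34 to -0.85, with -1.34 without NPRC-/-ApoE-/- 1. With agreeing labels only, where NPRC-/-ApoE-/- is 1 library, the median was -1.44. Grouped by genotype entry instead, the count meeting the criterion was 0, the count with an unadjusted p under 0.05 was 0 in place of 7, the median was -0.19 and the wider list's count was 0. That list's count (9 by title) was 5 of 12 rows with a mean of at least 5 FPKM, where fewer rows were tested, 14 with limma's sample quality weights, and 5 to 13 with libraries left out, the lowest without NPRC-/-ApoE-/- 2 or 3. Calls over all 20506 loci moved as well. By title 2797 had an unadjusted p under 0.05 in either direction in edgeR, and 5909 did with limma's sample quality weights. With libraries left out there were 1332 (without NPRC-/-ApoE-/- 2) to 4431 (without NPRC-/-ApoE-/- 1).

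By genotype entry the median was -0.30 with sample quality weights and -0.61 to 0.03 with libraries left out. There the sign turned for single genes in 15 cases, the ranges with libraries left out being -1.06 to 0.25 for C1qa, -1.38 to 0.29 for C1qb, -1.48 to 0.19 for C1qc, -0.44 to 0.09 for C4b, -0.86 to 0.28 for C3ar1 and -0.27 to 0.02 for Serping1. The cause was not tested.

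Same-numbered libraries had deviations from the mean of their titled group correlating at -0.31 to 0.01, and other pairs at -0.16 to 0.23. With 3 libraries in each titled group, this check cannot exclude that the replicate numbers pair libraries. With the replicate block on the 6 libraries numbered 1 to 3, 3 genes met the criterion and 5 had an unadjusted p under 0.05, against 6 and 7 in the same libraries without it. The 4 conflicting labels and the 5 against 3 libraries limit every comparison. C5ar1, at 518 to 1432 counts, was the least deeply covered gene.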
